A study of Mus musculus with 16 samples.

Results

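The genes described here encode the core kinase machinery of the G1 to S step of the cell cycle and the RB proteins on which it acts. They are the D cyclins Ccnd1, Ccnd2 and Ccnd3, the E cyclins Ccne1 and Ccne2, the kinases Cdk4, Cdk6 and Cdk2, and the pocket protein genes Rb1 and Rbl1. The 10 genes were picked by symbol, and 10 of 10 were found among the 23279 symbols of the expression table, each with a single entry. Their values were compared across 16 polyA RNA-seq libraries of pre-B cells of the mouse, immature B-lineage cells that BCR-ABL1 can transform to acute lymphoblastic leukaemia. The libraries form 4 groups of 4. They cross BCR-ABL1, a fusion protein whose ABL1 kinase is always on, with SHP2, the phosphatase that Ptpn11 encodes. The labels call BCR-ABL either WT or NULL (-/-), which was read here with the protocol's group names as carrying the fusion or lacking it, and they call SHP2 either WT or NULL (-/-). The sources used here do not give how the fusion was introduced, how Ptpn11 was deleted, the age and strain of the mice, or the culture of the cells. Nor do they tell if libraries of a group are separate animals or cultures, and the spread that p-values rest on may therefore be technical.

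D cyclins are made when growth factor signals reach the cell, and they bind and activate CDK4 and CDK6. These kinases, followed by CDK2 bound to E cyclins, phosphorylate RB1 and its relative p107 (the product of Rbl1), which releases E2F transcription factors and lets the genes of DNA replication be expressed. In the B lineage, cyclin D3 is known as the D cyclin that mouse pre-B cells need for their expansion, and E cyclin genes are themselves E2F targets. INK4 and CIP/KIP proteins, encoded by the Cdkn2 and Cdkn1 genes, are inhibitors of these kinases. Much of the control of the machinery acts on the proteins, through phosphorylation and degradation, which RNA levels do not show.

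In GENCODE M21 on GRCm38, Ccnd1 lies on chromosome 7 (144929931 to 144939925), Ccnd2 on chromosome 6 (127125162 to 127152193) and Ccnd3 on chromosome 17 (47505051 to 47599691). Ccne1 also lies on chromosome 7 (38097984 to 38107534), and Ccne2 lies on chromosome 4 (11191351 to 11204779). Cdk4 (127063534 to 127067920) and Cdk2 (128697939 to 128705031) are both on chromosome 10, and Cdk6 is on chromosome 5 (3341485 to 3531008). Rb1 lies on chromosome 14 (73183673 to 73325822) and Rbl1 on chromosome 2 (157145893 to 157204534). Cdk6 alone shares its chromosome with the targeted gene Ptpn11, at a distance of 117.6 Mb.

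The targeted gene followed the labels. Ptpn11 stood at 16.7, 17.6, 16.1 and 16.5 FPKM in the SHP2 wild-type libraries without BCR-ABL1 and at 7.43, 6.81, 2.87 and 6.02 FPKM in the null ones. With BCR-ABL1 it stood at 17.2, 17.1, 15.7 and 18.0 FPKM in wild-type and at 3.56, 3.56, 6.07 and 4.88 FPKM in null libraries, so wild-type and null libraries did not overlap. FPKM counts fragments by transcript length and by library size, so values of different genes can be set beside each other per length. No counts were available, so the depth behind each value is unknown. Summed FPKM ran from 348923 to 443702. All 13 of the B-lineage markers looked at reached 1 FPKM, with summed levels of 2071 to 2265 FPKM without BCR-ABL1 in SHP2 wild type, 2385 to 2779 in SHP2 null, 2288 to 2481 with BCR-ABL1 in wild type and 2363 to 2656 in null, so the first group lay below the 3 others without overlap. Of 10 myeloid markers 9 were in the table, and their summed level ran from 9.07 to 32.3 FPKM without BCR-ABL1 in SHP2 wild type, from 8.47 to 432.1 in SHP2 null, from 4.81 to 11.7 with BCR-ABL1 in wild type and from 4.72 to 8.95 in null. The highest sum belonged to SHP2-null replicate 2 without BCR-ABL1, where the macrophage lysozyme gene Lyz2 stood at 403 FPKM. Of 5 mast cell and basophil markers, all in the table, summed levels ran in the same order of groups from 7.48 to 12.9, 0.246 to 14.4, 1.41 to 7.38 and 0.848 to 3.52 FPKM, with the mast cell protease gene Cma1 at 0 in every BCR-ABL1 library. Summed markers of T and NK cells reached at most 3.29 FPKM, of erythroid cells and megakaryocytes 10.7 FPKM and of stromal cells 0.112 FPKM.

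The stretches just before the start sites of 3 of these genes are shown because they hold letters of known cell cycle motifs. RefSeq promoter windows on GRCm38.p6, of 300 bases each with 250 before the start, were matched by symbol for 6 of the 10 genes, with 7 windows in all. Ccnd1, Ccnd2, Ccne2 and Rb1 were not matched. These motifs were searched on both strands, with overlapping matches counted. The letters were, for E2F, TTTCGCGC, TTTGGCGC, TTTCCCGC and TTTGCCGC, for the MYC-type E-box CACGTG, and for STAT factors TTCNNNGAA. Capitals mark the matches, and the sequences run 5′ to 3′ on the strand of the gene.
Cdk4, chr10:127063285-127063533, plus strand: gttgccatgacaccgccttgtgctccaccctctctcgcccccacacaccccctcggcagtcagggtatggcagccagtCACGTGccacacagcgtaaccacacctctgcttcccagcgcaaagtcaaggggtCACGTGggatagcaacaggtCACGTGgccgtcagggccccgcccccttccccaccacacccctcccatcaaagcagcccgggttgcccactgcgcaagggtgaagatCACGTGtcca
Rbl1, chr2:157204535-157204582, minus strand: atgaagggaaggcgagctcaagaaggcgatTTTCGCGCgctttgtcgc
Cdk2, chr10:128705154-128705221, minus strand: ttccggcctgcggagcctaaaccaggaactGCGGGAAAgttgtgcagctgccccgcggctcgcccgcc
The Cdk4 window held 4 E-boxes. Of 32851 mouse windows, 8 held 4 or more (0.0244%) and 7.15% held at least 1. Cdk6 held 1 E-box. Rbl1 and Cdk2 held 1 E2F match each, which 2.26% of all windows had. No window of these genes held the STAT letters, which 8.30% of all windows had. A match describes letters in a window and says nothing of binding in these cells.

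Cdk4 and Ccnd3 dominated the levels of the set, and Ccnd1 was barely expressed. By mean FPKM over the 16 libraries, Cdk4 was the highest at 243 FPKM, with a range of 206 to 288, and Ccnd3 came next at 119.8, with a range of 85.7 to 147. Cdk4 lay above Ccnd3, and Ccnd3 above Cdk2, in 16 of 16 libraries. Cdk2 (41.9, range 38.0 to 44.9), Ccnd2 (37.1, range 28.5 to 47.2), Cdk6 (29.8, range 24.1 to 40.2) and Rbl1 (29.6, range 25.8 to 33.6) followed with ranges that overlapped from each to the next. Cdk6 exceeded Rbl1 in only 6 of 16 libraries, so those neighbours have no order beyond their spread, while Cdk2 exceeded Ccnd2 in 14 and Ccnd2 exceeded Cdk6 in 15. Ccne2 (15.4, range 12.2 to 19.9) and Ccne1 (14.5, range 10.7 to 17.1) overlapped too, with Ccne2 higher in 11 libraries. Rb1 averaged 11.3 FPKM, with a range of 9.45 to 13.2, and lay below Ccne1 within each of the 16 libraries although their ranges overlapped. Ccnd1 stood apart at the bottom, at 0.481 FPKM with a range of 0.255 to 0.707. The highest library exceeded the lowest by 1.18 times for Cdk2, the steadiest of the genes on this measure, by 1.71 times for Ccnd3 and by 2.78 times for Ccnd1.

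**Figure D1:**
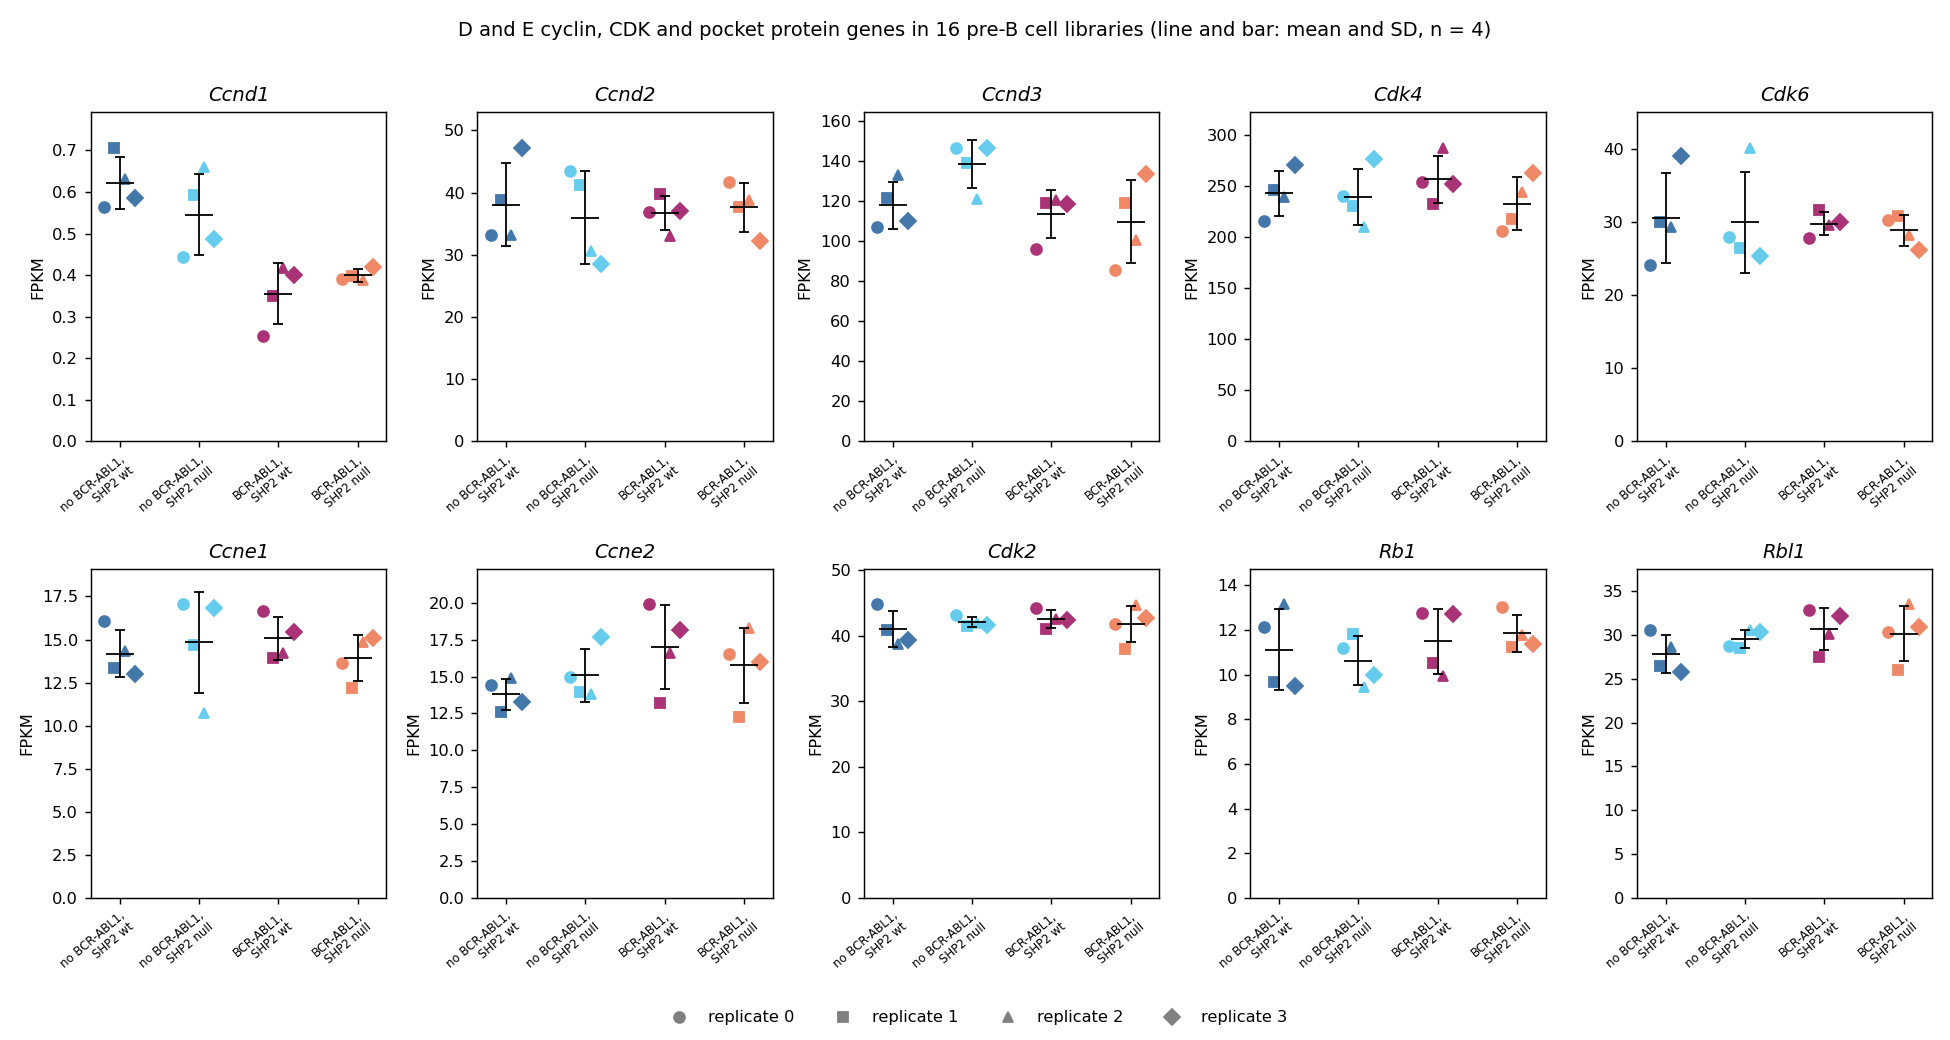
FPKM of each of the 10 genes (vertical axes, each from 0) in the 4 groups (horizontal axes), with a point per library, marker shapes for replicate numbers, and lines and bars for the mean and SD of 4 libraries. Ccnd1 is at most 0.707 FPKM and its BCR-ABL1 libraries lie under those of the same SHP2 status without BCR-ABL1. For the other 9 genes, groups that differ in BCR-ABL1 alone or in SHP2 alone overlap. Groups that differ in both can lie apart. Ccnd3 runs from 121 to 146.6 FPKM in SHP2 null without BCR-ABL1 and from 95.8 to 120.5 FPKM in SHP2 wild type with it.

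Cyclin D3 supplied most of the D cyclin transcripts. Ccnd3 made up 75.9% of the summed FPKM of the 3 D cyclin genes on average, from 67.0% to 83.5% over the 16 libraries. Its share was 75.2% ± 4.16 (SD, n = 4) in SHP2 wild-type and 79.2% ± 3.10 in SHP2-null cells without BCR-ABL1, and 75.3% ± 2.60 and 73.8% ± 5.63 with it, and the ranges of the 4 groups overlapped. Ccnd2, another D cyclin of lymphocytes, made up 23.8%, from 16.2% to 32.7%. Ccnd1, which is the main D cyclin of many epithelial tissues, made up 0.306%, from 0.192% to 0.439%. Among the 2 kinases that D cyclins activate, Cdk6 made up 11.01% of the summed Cdk4 and Cdk6 level, from 8.41% to 16.1%. The E cyclins were near parity, with Ccne1 at 48.6% of their sum, from 43.7% to 53.3%. Rbl1 made up 72.4% of the summed Rb1 and Rbl1 level, from 68.5% to 76.4%. These are shares of transcript levels per length within a library.

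**Figure D2:**
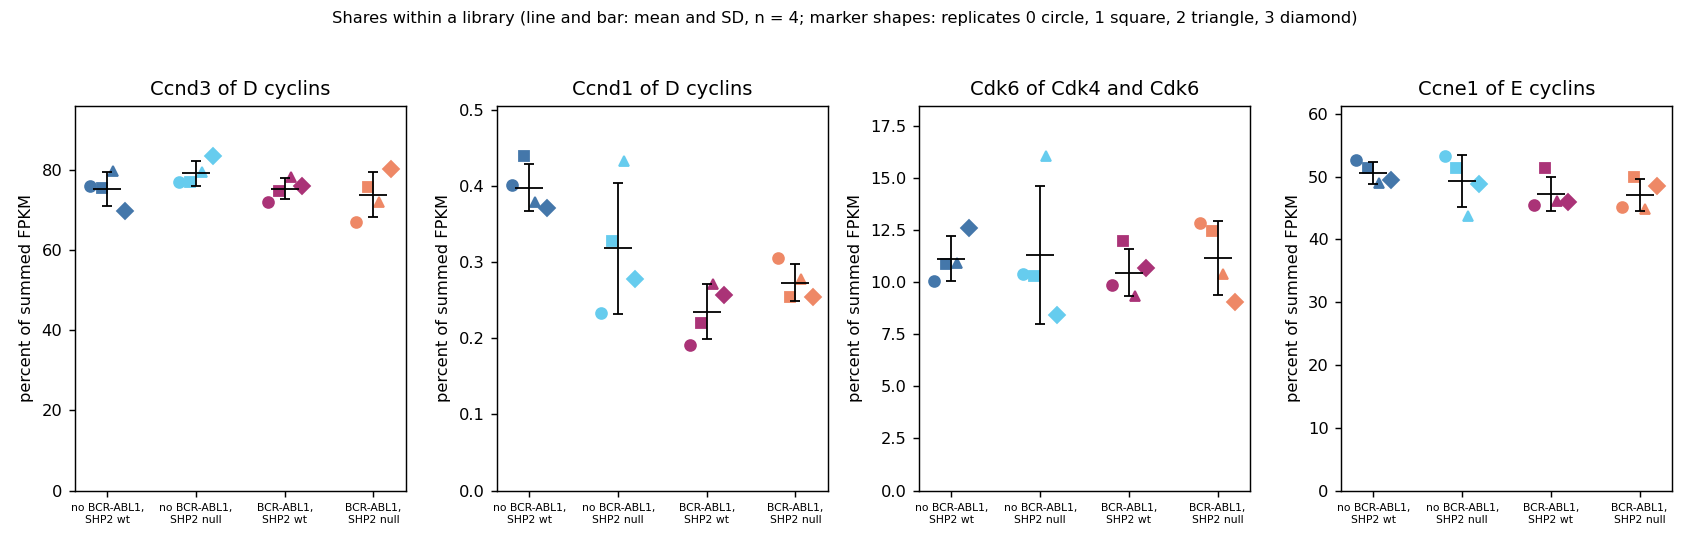
Share of 1 gene in the summed FPKM of its family (vertical axes, percent, each from 0) in the 4 groups (horizontal axes), with a point per library and the mean and SD of 4 libraries. Ccnd3 holds 67.0% to 83.5% of the D cyclin level in every library, and the Ccnd1 share is at most 0.439%.

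When BCR-ABL1 was present, SHP2 loss changed none of the genes past the test. Group means were within 10% of each other for all 9 genes tested, with the ratio of null to wild-type means at its lowest for Cdk4, a kinase that D cyclins activate (0.906), and at its highest for Rb1, the retinoblastoma gene (1.03). Genes were tested with limma on log2(FPKM + 1) if they reached 1 FPKM in at least 4 libraries, and an adjusted p below 0.05 over all genes tested counted as a call. Of the 10 genes 9 passed that filter, and Ccnd1 did not. Of these 9, 0 were called and 0 had an unadjusted p below 0.05, where 0.313% of all 10210 genes tested were called (32 genes, and 0.47% with the replicate number as a block) and 373 had an unadjusted p below 0.05. None of the other settings tried, which the closing section lists, called any of the 9.

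The values of Cdk4 show the spread behind this. With BCR-ABL1 it stood at 254.3, 232.7, 287.7 and 251.7 FPKM in SHP2 wild-type libraries and at 205.8, 217.4, 244 and 263 FPKM in null ones, so the groups overlapped. The log2 change was -0.14 ± 0.11 (SE), with a 95% interval of -0.37 to 0.08 and an adjusted p of 1.00. The E cyclin genes had changes of -0.11 (interval -0.36 to 0.15) for Ccne1 and -0.10 (-0.37 to 0.17) for Ccne2. Ccnd3 changed by -0.06 (-0.33 to 0.21) and Ccnd2 by 0.03 (-0.26 to 0.33). Of the 9 changes, 7 were negative and 2 positive, with a median of -0.04 beside -0.02 over all genes tested. The 9 intervals together spanned -0.37 to 0.33, so changes of that size are compatible with the data, and a p that misses the threshold does not show that the levels did not differ. In 0 of the 9 genes did the groups not overlap, where 3.1% of all genes tested had groups apart.

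When BCR-ABL1 was absent, SHP2 loss also changed none of the 9 genes past the test. The largest difference was in Ccnd3, which averaged 117.8 ± 11.8 FPKM (SD, n = 4) with SHP2 and 138 ± 11.98 FPKM without it. Its libraries stood at 146.6, 139, 121 and 146.3 FPKM in null and at 107, 121.6, 132.7 and 109.8 FPKM in wild type. Null replicate 2, the library in which Lyz2 stood at 403 FPKM, lay inside the wild-type range and the other 3 null libraries above it. The log2 change was 0.23 ± 0.13 (SE, interval -0.04 to 0.50, limma adjusted p = 0.389). Without that null library it was 0.29, also without a call. Of the 9 genes, 0 were called and 0 had an unadjusted p below 0.05, where 1.54% of all genes were called (157 genes, and 5.75% with the block) and 1645 had an unadjusted p below 0.05. Of the 9 changes, 5 were positive and 4 negative, with a median of 0.04 beside 0.02 over all genes tested. Ccne2 followed Ccnd3 at 0.12 (interval -0.15 to 0.39), and the lowest was Ccnd2 at -0.09 (-0.38 to 0.21). In 0 of 9 genes did the groups not overlap, where 9.09% of all genes had groups apart.

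BCR-ABL1 in SHP2 wild-type cells went with a lower level of Ccnd1, the least expressed of the genes, and with no call among the other 9. Ccnd1 stood at 0.565, 0.707, 0.631 and 0.586 FPKM without BCR-ABL1 and at 0.255, 0.350, 0.418 and 0.401 FPKM with it. Every library with BCR-ABL1 lay below every library without it. The means were 0.622 ± 0.0631 and 0.356 ± 0.0733 FPKM (SD, n = 4), a ratio of 0.572. In a fit without the filter on low values, over 18172 genes, the log2 change was -0.26 ± 0.05 (SE, interval -0.36 to -0.16, limma adjusted p = 0.00808), and 1.36% of those genes were called lower. The log2(FPKM + 1) scale understates the change of a gene this low. With a pseudocount of 0.1 the change was -0.68, and the adjusted p over all the alternatives run on Ccnd1 lay between 0.00303 and 0.0401. An exact two-sided permutation test on FPKM gave p = 0.0286, the smallest that 4 against 4 libraries allow, and 0.0571 after adjustment over the 4 comparisons of this gene.

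The same comparison in SHP2-null cells gave a smaller difference in Ccnd1. Its libraries stood at 0.444, 0.592, 0.660 and 0.486 FPKM without BCR-ABL1 and at 0.390, 0.399, 0.388 and 0.421 FPKM with it, and these groups did not overlap either. The means were 0.546 ± 0.0985 and 0.399 ± 0.0150 FPKM, a ratio of 0.732. The log2 change of -0.14 ± 0.05 (SE, interval -0.24 to -0.04) missed the threshold in the fit without the filter (limma adjusted p = 0.220), where 0.358% of 18172 genes were called lower. The exact permutation p was again 0.0286, and 0.0571 adjusted. Without the null library in which Lyz2 stood at 403 FPKM, the mean without BCR-ABL1 was 0.508 ± 0.0764 FPKM (n = 3) and the log2 change -0.11. Groups that do not overlap occurred in 9.75% of the genes fitted without the filter for BCR-ABL1 in SHP2 wild type and in 6.02% for SHP2 null. The 2 changes were not shown to differ from each other, with an interaction of 0.12 ± 0.07 (SE, limma adjusted p = 0.940). With SHP2 loss Ccnd1 changed by 0.05 ± 0.05 with BCR-ABL1 and by -0.07 ± 0.05 without it (SE, limma adjusted p = 1.00 and 0.564).

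Markers of other cells and a neighbouring gene were set beside the Ccnd1 values. Of the summed marker levels given above, those of mast cells in SHP2 wild type were lower in every BCR-ABL1 library than in every library without it, while those of myeloid cells, and both sums in SHP2 null, overlapped between the groups. The summed B-lineage markers in SHP2 wild type were higher in every BCR-ABL1 library than in every library without it. The part of these markers in the Ccnd1 difference was not tested. In bulk libraries, fewer cells of a type and less RNA per cell cannot be told apart. Ccnd1 shares 1100 of its 4709 exon bases (23.4%) with exons of Oraov1 on the opposite strand in GENCODE. The kit keeps strand, but the sources used here do not tell whether the authors' quantification used it. Oraov1 ran from 3.35 to 4.75 FPKM, far above Ccnd1, and its log2 change was 0.04 for BCR-ABL1 in SHP2 wild type and -0.06 in SHP2 null (limma adjusted p = 0.857 and 0.807). Opposite-strand exons also overlap Cdk4 (19.7% of its exon bases, with Tspan31), Ccne2 (17.4%, Ints8), Rb1 (8.11%, Rcbtb2, and 6.78%, Lpar6), Ccnd3 (4.11%, Bysl) and Cdk2 (0.547%, Pmel).

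Among the 9 genes above the filter, BCR-ABL1 in SHP2 wild-type cells gave 0 calls and 0 unadjusted p below 0.05, where 4.67% of all genes were called (477 genes, and 12.1% with the block) and 1949 had an unadjusted p below 0.05. Ccne2, an E cyclin gene, came nearest. It stood at 14.4, 12.6, 14.9 and 13.3 FPKM without BCR-ABL1 and at 19.9, 13.2, 16.6 and 18.2 FPKM with it. Replicate 1 with BCR-ABL1 lay inside the range without it, and the other 3 lay above. The log2 change was 0.27 ± 0.13 (SE, interval -0.00 to 0.54, limma adjusted p = 0.263, and 0.0710 with the block). Its partner Cdk2 changed by 0.05 (interval -0.08 to 0.19) and the other E cyclin, Ccne1, by 0.08 (-0.17 to 0.34). Rbl1, a pocket protein gene, averaged 30.7 ± 2.41 with and 27.8 ± 2.18 FPKM without BCR-ABL1, a change of 0.13 (-0.04 to 0.31). Of the 9 changes, 6 were positive and 3 negative, with a median of 0.05 beside 0.04 over all genes tested. In 0 of 9 genes did the groups not overlap, where 11.7% of all genes had groups apart.

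In SHP2-null cells BCR-ABL1 gave 0 calls among the 9 genes, and 1 of them, Ccnd3, had an unadjusted p below 0.05. Over all genes tested 1.26% were called (129 genes, and 5.27% with the block) and 1379 had an unadjusted p below 0.05. Ccnd3 stood at 85.7, 119, 100.5 and 133 FPKM with BCR-ABL1, against 121 to 146.6 FPKM in the 4 libraries without it that are given above. Replicate 3 with BCR-ABL1 lay inside the range without it, and the other 3 lay below. The means were 109.7 ± 20.8 and 138 ± 11.98 FPKM, a ratio of 0.793. The log2 change was -0.35 ± 0.13 (SE, interval -0.62 to -0.08, limma adjusted p = 0.233, and 0.0842 with the block), and it ran from -0.45 to -0.24 when single libraries were left out. In SHP2 wild-type cells the same gene changed by -0.06 (interval -0.32 to 0.21), and the interaction was -0.29 ± 0.18 (SE, adjusted p = 0.866), so the effect of BCR-ABL1 on Ccnd3 was not shown to depend on SHP2. Of the other 8 genes the lowest change was -0.07 for Ccne1 (-0.32 to 0.19) and the highest 0.15 for Rb1 (-0.08 to 0.38). The median over the 9 was -0.01, as it was over all genes tested, and groups did not overlap in 0 of 9 against 7.07% of all genes.

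The interaction, which asks whether the effect of SHP2 loss differed between cells with and without BCR-ABL1, gave 0 calls among the 9 genes and 0 unadjusted p below 0.05. Over all 10210 genes it gave 0 calls as well (0.0%), with 591 unadjusted p below 0.05, and 3 calls in the fit without the filter (0.0165%), none of them Ccnd1. The changes ran from -0.29 for Ccnd3 to 0.12 for Ccnd2, with 7 of 9 negative and a median of -0.11 beside -0.04 over all genes. This comparison is built from the same libraries as the others and is no separate evidence.

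**Figure D3:**
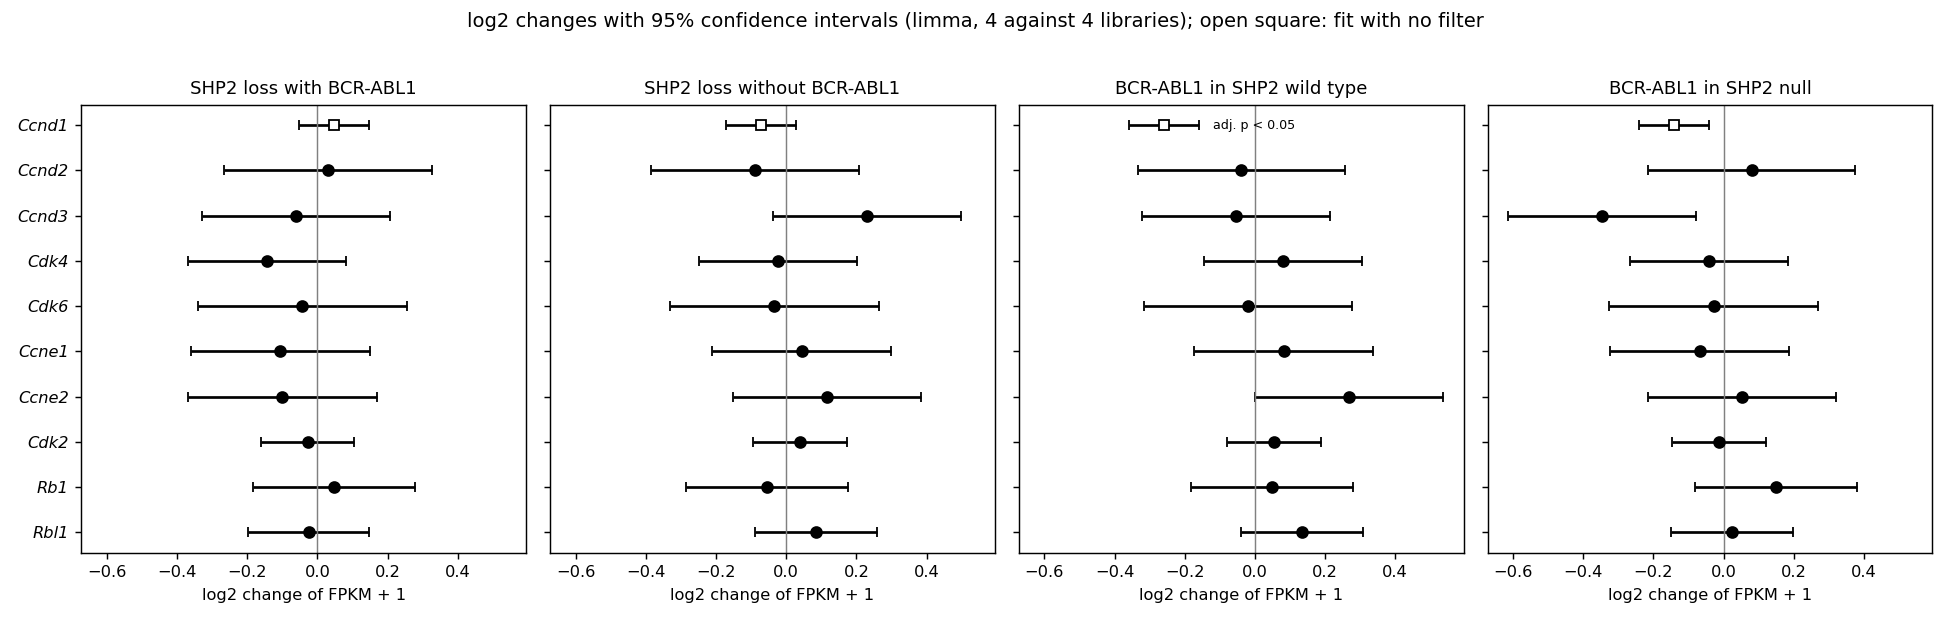
Log2 changes of FPKM + 1 (horizontal axes) with 95% confidence intervals from limma for the 10 genes (vertical axis) in 4 comparisons of 4 against 4 libraries, with an open square for Ccnd1, which was fitted without the filter on low values. Only Ccnd1 with BCR-ABL1 in SHP2 wild type has an adjusted p below 0.05, and the intervals of the 9 other genes span 0 except for Ccnd3 with BCR-ABL1 in SHP2 null (-0.62 to -0.08).

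For most of these genes, libraries varied as much by replicate number as by group. The protocol states that libraries were loaded for sequencing in sets of 1 from each group, without saying that the number marks the set. The range of the 4 replicate-number means exceeded the range of the 4 group means in 8 of the 10 genes, all but Ccnd1 (0.11 against 0.26, log2 scale) and Ccnd3 (0.24 against 0.35). Over all genes tested the medians of these ranges were 0.22 and 0.19. Ccne2 had a replicate range of 0.31 against a group range of 0.27, and it lay below its group mean in all 4 libraries numbered 1, by 0.22 on average. Rbl1 lay below its group mean in the same 4 libraries, by 0.12 on average, while Ccnd2 and Ccnd3 lay above theirs in all 4. In the 4 libraries numbered 0, Rb1 and Cdk2 lay above and Ccnd1 below the group mean. These cases were picked from all 10 genes and 4 numbers because the 4 libraries lay on the same side. How often chance, or all genes tested, would give such cases was not tested. Within groups the SD on the log2 scale ran from 0.07 for Cdk2 and Ccnd1 to 0.21 for Ccnd2 and Cdk6, beside a median of 0.14 over all genes tested. For Ccnd1, below 1 FPKM, the log2(FPKM + 1) scale understates the spread. With BCR-ABL1 in SHP2 wild type its SD was 0.0733 FPKM on a mean of 0.356 FPKM. Adding the replicate number as a block changed no call among the 10 genes.

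**Figure D4:**
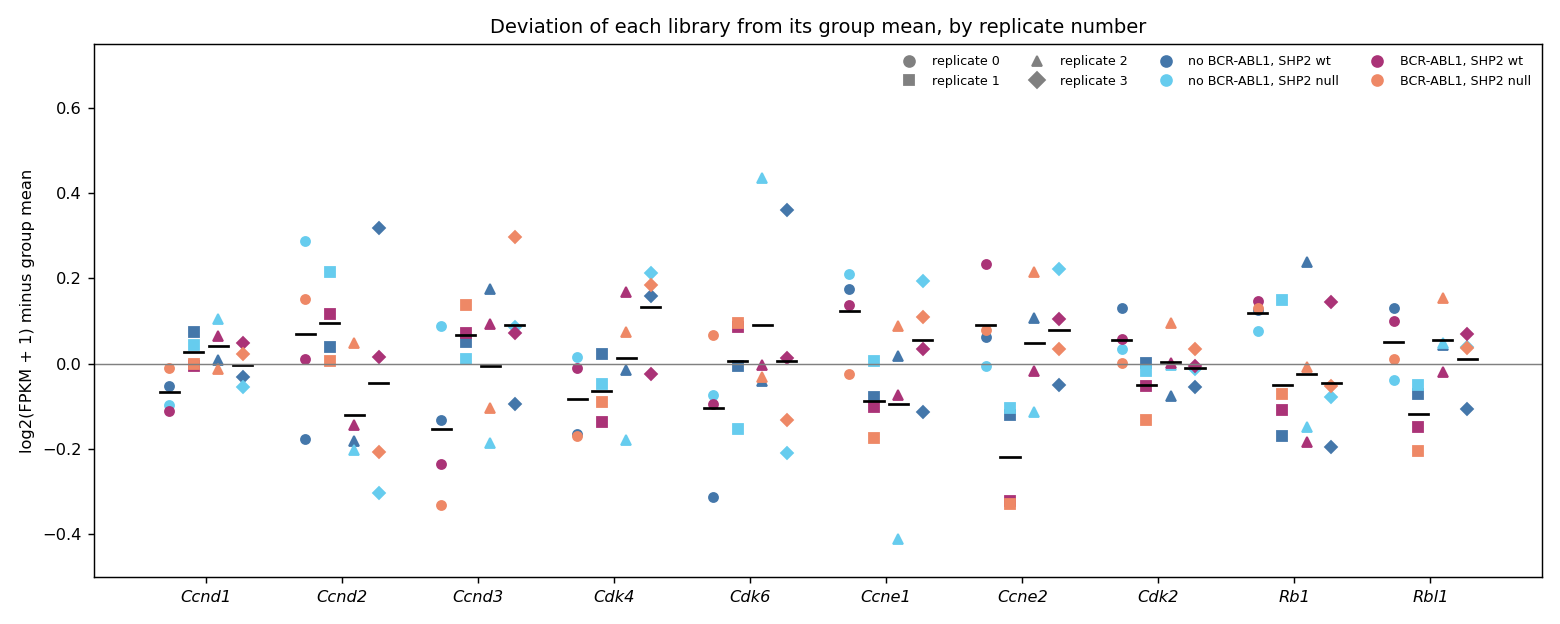
Deviation of log2(FPKM + 1) from its group mean (vertical axis) for each of the 16 libraries and 10 genes (horizontal axis), with marker shapes for replicate numbers, colours for groups and black lines for the mean of the 4 libraries sharing a number. Ccne2 and Rbl1 lie below 0, and Ccnd2 and Ccnd3 above 0, in all 4 libraries numbered 1, without a test of how often chance gives this.

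Some inhibitors of these kinases rose, and others were lower without a call. Of 7 CDK inhibitor genes 6 were tested. Cdkn2d, which encodes the INK4 protein p19 that inhibits CDK4 and CDK6, rose with SHP2 loss in cells without BCR-ABL1, where null libraries averaged 14.4 ± 0.918 FPKM (SD, n = 4) and the others 10.3 ± 1.16 FPKM. The log2 change was 0.45 ± 0.08 (SE, limma adjusted p = 0.00807), the 1 call there, where 1.02% of all genes were called higher. With BCR-ABL1 in SHP2 wild type it rose to 15.5 ± 0.830 FPKM, a change of 0.55 ± 0.08 (adjusted p = 0.00101), where 2.95% of all genes were called higher. Cdkn1b, which encodes the CDK2 inhibitor p27, rose in that comparison from 10.1 ± 0.388 to 12.3 ± 0.643 FPKM, a change of 0.26 ± 0.07 (adjusted p = 0.0412), though its call was lost in 11 of 16 fits that left out a library. In both comparisons where Cdkn2d rose, the summed B-lineage markers given above were higher too, without overlap, and their part in these differences was not tested. Both comparisons share the SHP2 wild-type libraries without BCR-ABL1 as reference, so the Cdkn2d calls are no separate evidence. With BCR-ABL1 in SHP2 null, Cdkn2d averaged 16.8 ± 1.47 FPKM. In the other 2 comparisons 0 inhibitor genes were called. Cdkn1b changed there by 0.17 ± 0.07 with SHP2 loss in BCR-ABL1 cells (adjusted p = 1.00) and by 0.25 ± 0.07 with BCR-ABL1 in SHP2-null cells (adjusted p = 0.0998, and 0.0455 with the block). Cdkn2b had the smallest p of the 6 for SHP2 loss in BCR-ABL1 cells. It averaged 2.01 ± 0.117 FPKM in null and 1.33 ± 0.236 FPKM in wild-type libraries. Its change of 0.37 ± 0.10 (SE) was not called (limma adjusted p = 0.426, and 0.262 with the block). The medians over the 6 genes were 0.14 and 0.37 for SHP2 loss with and without BCR-ABL1 and 0.28 and 0.10 for BCR-ABL1 in SHP2 wild type and null, beside -0.02, 0.02, 0.04 and -0.01 over all genes tested. Of the 6 changes, 1, 1, 2 and 3 were negative in that order, and the lowest were -0.27, -0.08, -0.33 and -0.53. An unadjusted p below 0.05 was found for 2, 5, 4 and 3 of the 6, and for 373, 1645, 1949 and 1379 of all genes tested.

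For the lists that follow, the order of comparisons is SHP2 loss with and without BCR-ABL1, then BCR-ABL1 in SHP2 wild type and in SHP2 null. Over all 10210 genes tested, 0.313%, 1.54%, 4.67% and 1.26% were called in that order, and 373, 1645, 1949 and 1379 genes had an unadjusted p below 0.05, so few calls or none in a list of this size are near that background. With the replicate number as a block, 0.47%, 5.75%, 12.1% and 5.27% of all genes were called in that order. Of 11 genes for E2F factors, their DP partners and the pocket protein p130, 11 were tested and 0 were called in any of the 4 comparisons, with 0, 3, 3 and 1 at an unadjusted p below 0.05. E2f2, an activating E2F, stood at 21.6 ± 4.32 FPKM with SHP2 and 30.1 ± 6.55 FPKM without it when BCR-ABL1 was absent (limma adjusted p = 0.218, and 0.00839 with the block). Tfdp2, a DP partner, averaged 8.08 ± 0.512 with and 6.67 ± 0.693 FPKM without BCR-ABL1 in SHP2 wild type (adjusted p = 0.0562, and 0.0185 with the block). E2f6, a repressive E2F, averaged 11.8 ± 0.724 and 9.80 ± 0.821 FPKM there (adjusted p = 0.0591, and 0.0137 with the block). E2f3 was also among the genes of smallest p in some comparisons. It missed the threshold with the block for SHP2 loss without BCR-ABL1 (limma adjusted p = 0.0948) and for BCR-ABL1 in SHP2 null (0.162).

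Of 20 E2F target genes of DNA replication, all tested, 1 was called, in the comparison where 4.67% of all genes were called. This was Cdc45, a part of the replicative helicase, which rose with BCR-ABL1 in SHP2 wild type from 34.1 ± 0.655 to 39.8 ± 1.80 FPKM (log2 change 0.22 ± 0.06, SE, limma adjusted p = 0.0440), and its call was lost in 12 of 16 fits that left out a library. Of the 20 changes, 19, 7, 5 and 18 were negative in the order above, with medians of -0.12, 0.03, 0.09 and -0.07 beside -0.02, 0.02, 0.04 and -0.01 over all genes tested, and 3, 2, 3 and 2 had an unadjusted p below 0.05. The helicase gene Mcm7, for example, stood at 168 ± 7.71 FPKM with SHP2 and 151 ± 3.97 FPKM without it when BCR-ABL1 was present (adjusted p = 1.00). Uhrf1 had the smallest p for SHP2 loss without BCR-ABL1. It averaged 117.3 ± 10.2 FPKM with SHP2 and 146 ± 6.99 FPKM without it (limma adjusted p = 0.0571, and 0.0176 with the block). Cdc45, next by p there, missed the threshold with the block (limma adjusted p = 0.0740). In SHP2 null, Uhrf1 was lower with BCR-ABL1, at 123 ± 10.4 FPKM (limma adjusted p = 0.160, and 0.0508 with the block).

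Genes for later cyclins, CDK1 and the CDK-activating kinase gave 0 calls of 8 tested out of 9, with 0, 1, 2 and 0 at an unadjusted p below 0.05. Ccnf, whose product marks proteins for destruction in G2, stood at 29.3 ± 0.674 FPKM with SHP2 and 34.9 ± 1.69 FPKM without it when BCR-ABL1 was absent (limma adjusted p = 0.0745, and 0.0206 with the block), and 34.1 ± 2.04 FPKM in SHP2 wild type with BCR-ABL1 (adjusted p = 0.0719, and 0.0220 with the block). Ccnb2, next by p in both comparisons, missed the threshold with the block (limma adjusted p = 0.244 and 0.0534). Regulators of CDK activity and cyclin stability gave 0 calls of 14 tested out of 15, with 0, 0, 0 and 2 at an unadjusted p below 0.05. Cdc25b, a phosphatase that activates CDKs, averaged 27.6 ± 3.27 with and 37.6 ± 5.71 FPKM without BCR-ABL1 in SHP2-null cells (adjusted p = 0.117, and 0.0323 with the block). Fzr1, next by p there, missed the threshold with the block (limma adjusted p = 0.0514). Transcription factors known to act on D cyclin and CDK genes in B cells gave 0 calls of 12 tested out of 13, with 0, 3, 2 and 2 at an unadjusted p below 0.05. Stat5a, a mediator of IL-7 and BCR-ABL1 signals, stood at 7.39 ± 0.666 FPKM with SHP2 and 9.60 ± 0.405 FPKM without it when BCR-ABL1 was absent (adjusted p = 0.0564, and 0.0169 with the block). Stat5b, next by p there, averaged 9.29 ± 1.05 with and 11.8 ± 1.13 FPKM without SHP2 (limma adjusted p = 0.0973, and 0.0407 with the block). Of the 12 changes in that comparison, 7 were positive and 5 negative.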

How the data were processed

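PolyA RNA (150 ng per sample) was made into stranded libraries and read for 100 cycles from both ends, per the labels' protocols. The authors deposited FPKM values, 1 column per library with genes by symbol. Reads were processed with Bowtie and Cufflinks on mm10 (GRCm38), per the submitters' processing notes. Versions, annotation and the use of strand were not given in the sources used here. Of 23758 entries in the series table, those of 254 repeated symbols were summed, none of them among the 10 genes. The 16 single-library files held the same values. Among 364 genes listed below 0.05 FPKM, the commonest ratio between libraries held, within 1%, for 2.5% to 5.5%, so whole reads could not be recovered.

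The 10210 genes that reached 1 FPKM in 4 or more of the 16 libraries were analysed as log2(FPKM + 1). One limma model held a mean for each of the 4 groups, with a variance prior that follows expression. P-values were adjusted by Benjamini-Hochberg over all genes tested, with a call below 0.05. The fit was checked on simulated data. Ccnd1, which is below the filter, was fitted with all 18172 genes that have a value above 0, a choice made after its values were seen. Alternatives were a pseudocount of 0.1, no filter, median-ratio scaling, the replicate number as a block, the compared groups alone, and leaving out each library. Deviations from group means correlated between same-number libraries at 0.218 to 0.783 for SHP2 loss with BCR-ABL1, 0.189 to 0.51 without it and 0.242 to 0.68 for BCR-ABL1 in SHP2 null, so the numbers pair these libraries by the rule of every pair exceeding 0.1. For BCR-ABL1 in SHP2 wild type they ran from 0.0549 to 0.643, with 1 of 4 pairs under 0.1. Libraries of different numbers were not compared in this way. The main fit did not use the pairing, so its calls and counts are unpaired, and the fit with the block takes the numbers into account.

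The 10 genes and the gene lists were chosen with earlier results of these data known. Named were all 10 genes, Ptpn11 and, per list and comparison, called genes (up to 4) or, with none called, some of the 2 with the smallest p, picked after their values were seen. Exon overlaps came from GENCODE M21 and promoter windows from RefSeq. Tools were limma 3.58.1 in R 4.3.3, and in Python 3.11.15 scipy 1.17.1, pandas 2.3.3, numpy 2.4.6 and matplotlib 3.10.9.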

Additional observations from a re-analysis of the deposited data

Results flagged for a closer look

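Of the 40 sets of 4 values that the 10 genes and 4 groups give, 1 held a library far from the rest. Ccnd3 in replicate 0 of the SHP2 wild-type libraries with BCR-ABL1 stood at 95.8 FPKM, while the other 3 libraries lay between 118.7 and 120.5 FPKM. The gap was 0.926 of the range of the group, above Dixon's 95% critical value for 4 values. Chance flags about 1 in 20 such sets.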

How the results depend on the processing

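Over the alternatives, the 9 genes above the filter gave 936 values with 0 calls, the lowest adjusted p being 0.0710, and the sign of the uncalled change differed from that reported in 44 of them. Without the filter, the genes called with BCR-ABL1 in SHP2 wild type numbered 1 of 10, which was Ccnd1. Ccnd1 kept its direction and its side of the threshold in all 99 alternative values, with a log2 change between -0.28 and -0.22 for BCR-ABL1 in SHP2 wild type when single libraries were left out. These 99 values cover all comparisons and the interaction, and most of them belong to comparisons in which Ccnd1 was not called. Leaving out a library outside the compared groups cannot move a log2 change, so such values are no separate checks. Of 1248 alternative values of the 12 other genes followed (Ptpn11, Oraov1, Cdkn2d, Cdkn1b, Cdc45, Mcm7, E2f2, E2f6, Tfdp2, Ccnf, Cdc25b and Stat5a), 1205 kept their call or lack of one, 27 lost a call, 16 gained one, 9 of these with the block, and 0 changed direction while called. Cdkn1b with BCR-ABL1 in SHP2 wild type lost its call with median-ratio scaling and with the compared groups alone, as did Cdc45 with the latter, and Cdkn2d with SHP2 loss in cells without BCR-ABL1 lost its call with the compared groups alone (adjusted p = 0.0849). Counts over all genes moved most. With the replicate number as a block they were 587 for SHP2 loss without BCR-ABL1, 1231 for BCR-ABL1 in SHP2 wild type and 538 in SHP2 null, and the block changed no call of the 10 genes. With the compared groups alone they were 34 for SHP2 loss without BCR-ABL1 and 30 for BCR-ABL1 in SHP2 null, where fewer libraries entered the fit. The interaction gave 3 calls without the filter. Leaving out single libraries gave 20 to 35 calls for SHP2 loss with BCR-ABL1, 80 to 164 without it, 235 to 636 for BCR-ABL1 in SHP2 wild type, 49 to 176 in SHP2 null and 0 to 1 for the interaction. Median-ratio scaling moved the split of calls for BCR-ABL1 in SHP2 wild type from 301 higher and 176 lower to 235 and 212. The cause of these shifts was not tested. With 4 libraries a group and no counts, changes within the intervals given could not be resolved, and the depth behind Ccnd1 at under 1 FPKM is unknown.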
